A study of Homo sapiens with 6 samples.

Results

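The genes described here are 10 genes of the actin cytoskeleton and of the transcription factor that is known for controlling many of them: ACTA2, TAGLN, CNN1, TPM1, TPM2, MYL9, MYH9, ACTB, ACTG1 and SRF. They were chosen by symbol, for what they are known to do and with earlier results of these data known. Each matched 1 gene ID of the 58051 in the count table. The cells were A375, an established human melanoma line, so a single line stands for all results. The Vehicle group was starved for 2 h and then given 4 mM HCl with 1 mg/mL BSA for 2 h. The TGFB1 group, starved for the same 2 h, received TGFB1, which binds the TGF-beta receptors, at 10 ng/mL for 2 h. Each group had 3 libraries. The series calls them technical triplicates, so the p-values below measure only the spread between these libraries, which may be technical. The comparison asks which genes had a different RNA level 2 h after the ligand.

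SRF is a DNA-binding protein that recognises a short sequence called the CArG box. It works with myocardin-related coactivators, MRTFA and MRTFB, which are held in the cytoplasm by free actin monomers and move to the nucleus when actin polymerises, and with ternary complex factors such as ELK1, which answer growth factor signalling through MAP kinases. Actins form the filaments, tropomyosins lie along them, non-muscle myosin II pulls on them, and smooth muscle forms of these proteins are used as markers of myofibroblasts, cells that TGF-beta is known to induce from fibroblasts over longer times.

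The sequences that bear on this are the CArG boxes themselves. The motif searched was 2 C, then 6 bases that are each A or T, then 2 G, in a window from 250 bases before to 50 bases after each RefSeq transcript start (300 bases, GRCh38.p14). The pattern reads the same on both strands. The table held windows for 7 of the 10 genes; TAGLN, MYL9 and ACTB had none. The motif stood in the windows of SRF and ACTG1, 2 of 7 genes, against 438 of 27305 genes (1.6%) and 1.29% of all 35116 windows. The stretches upstream of the SRF start (chr6:43171139-43171268, plus strand), and the ACTG1 site (chr17:81512874-81512903, minus strand), were as follows, with the CArG boxes in capitals:
SRF: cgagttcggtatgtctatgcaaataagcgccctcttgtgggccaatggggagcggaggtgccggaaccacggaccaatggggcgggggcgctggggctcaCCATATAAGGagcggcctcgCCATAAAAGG
ACTG1: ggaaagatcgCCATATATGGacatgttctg
Counted from the transcript start, the SRF boxes lie at positions -30 to -21 and -10 to -1, close to each other. The ACTG1 box lies at positions -94 to -85.

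ACTA2, the smooth muscle actin, had no full CArG box in its windows. CArG-like sequences, in which exactly 1 of the 6 middle bases is G or C, were found in 8.46% of all genes and 6.94% of all windows. ACTA2 had 2 of them, and no other of the 7 genes had any. They are shown in capitals in the stretch at chr10:88952774-88952903 (minus strand):
ACTA2: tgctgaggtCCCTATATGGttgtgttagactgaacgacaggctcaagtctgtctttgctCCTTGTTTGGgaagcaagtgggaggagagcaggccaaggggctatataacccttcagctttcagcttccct
A further motif, CAGAC, which is known as a SMAD-binding element, was searched on both strands. It was found in 6 of the 7 genes (85.7%) against 50% of all genes, and in 70% of their windows against 45.3% of all windows. A motif this common separates few genes. TGACTCA, the AP-1 motif, was in none of the 7, against 6.05% of all genes and 4.95% of all windows. A match describes the letters only; no binding was measured.

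Library totals ran from 24713894 to 34895075 counts. Levels are given as counts per 1000000 counts of the scaled library total (CPM), and tests are edgeR's quasi-likelihood F-test over 16690 genes with Benjamini-Hochberg adjustment. An adjusted p under 0.05 counts as past the test. Of the 10 genes, 9 passed the filter on low counts and 0 passed the test in either direction, where 553 of the 16690 genes tested (3.31%) did, 2.43% higher and 0.887% lower. DESeq2 and limma-voom also called 0 of the 9, against 3.41% and 3.11% of all genes tested. At an unadjusted p under 0.05 there was 1, ACTB, where 12.3% of all genes tested had such a p. The median log2 fold change of the 9 was 0.037, against -0.007 over all genes tested. In bulk RNA, fewer cells with a transcript and less of it per cell cannot be told apart.

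**Figure D1:**
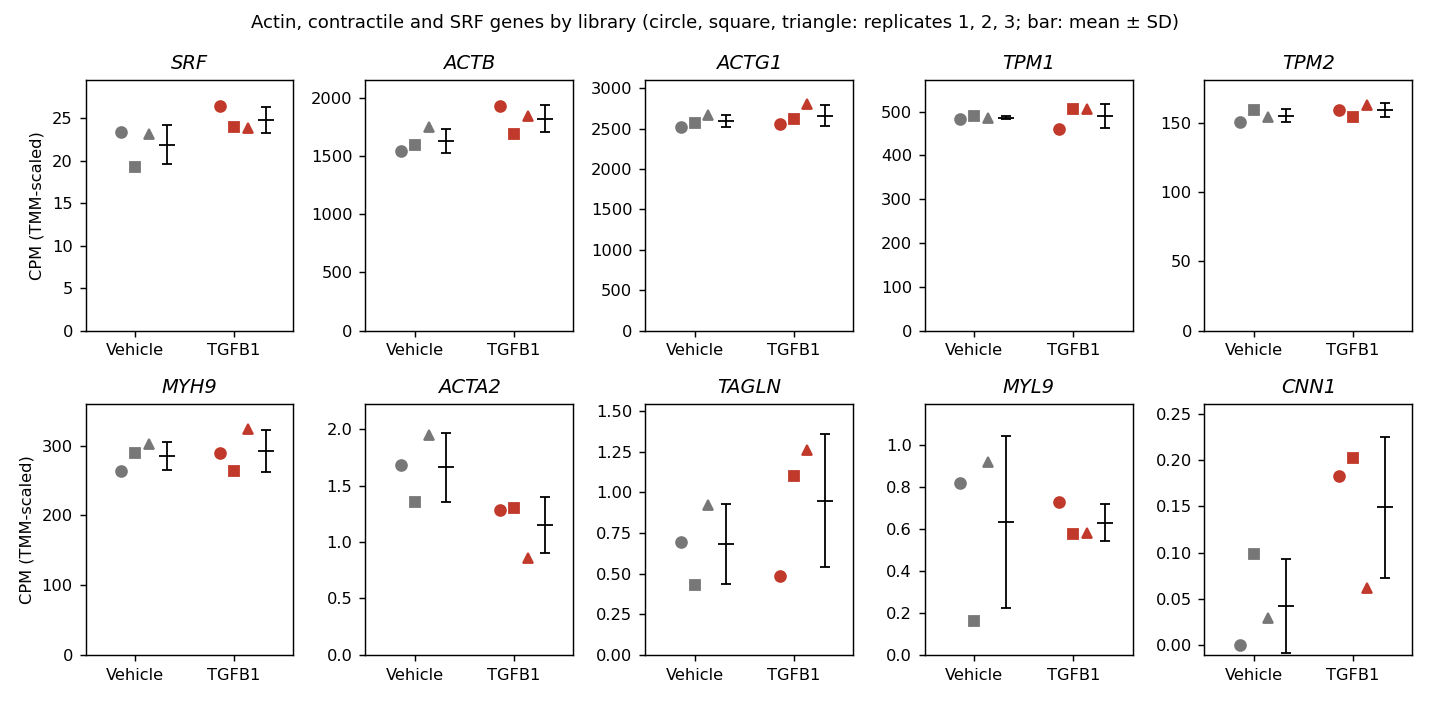
Level of each of the 10 genes in each library, in CPM on axes of its own scale, with Vehicle in grey and TGFB1 in red; the bar is the mean ± SD of 3 libraries. SRF is the gene whose TGFB1 libraries all lie above Vehicle, ACTA2 the gene whose TGFB1 libraries all lie below, and in the other 8 the groups overlap.

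SRF itself (ENSG00000112658, chr6:43171299-43181507, plus strand) had 23.4, 19.3 and 23.1 CPM in Vehicle replicates 1 to 3 and 26.5, 24.0 and 23.9 CPM in TGFB1 replicates 1 to 3. All 3 TGFB1 libraries were above all 3 Vehicle libraries, an ordering that 8.96% of all genes tested showed in this direction. The mean was 21.9 ± 2.27 (SD, n = 3) in Vehicle and 24.8 ± 1.48 with TGFB1. The log2 fold change was 0.18 ± 0.09 (SE), with an adjusted p of 0.45. Without Vehicle replicate 2, the lowest of the 6, the log2 fold change was 0.1. The 95% interval of the fold, 0.99 to 1.29 and not adjusted over genes, includes 1. SRF thus carries 2 CArG boxes next to its start and did not pass the test at 2 h.

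The cytoplasmic actins ACTB and ACTG1 encode near-identical proteins that make up most of the actin of non-muscle cells. ACTB (ENSG00000075624, chr7:5527147-5563784, minus strand) had 1545, 1598 and 1748 CPM in Vehicle and 1929, 1696 and 1847 CPM with TGFB1. The groups overlapped, since TGFB1 replicate 2 lay below Vehicle replicate 3. The means were 1630.5 ± 105 and 1824 ± 118 CPM, a log2 fold change of 0.16 ± 0.05 (SE) with an unadjusted p of 0.00304 and an adjusted p of 0.08. The interval of the fold ran from 1.04 to 1.2. ACTB was thus not called in this fit, and a call turned on single libraries and settings. Without Vehicle replicate 3 the log2 fold change was 0.22 (adjusted p = 0.00259), and without TGFB1 replicate 2 it was 0.21 (adjusted p = 0.0098). When any other library was left out, the adjusted p ran from 0.295 to 0.532. With no filter on low counts the adjusted p was 0.0246, and with the replicate number as a block it was 0.0421. It was 0.236 with scaling by total counts, 0.122 with upper-quartile scaling and 0.102 with DESeq2. With 37774 to 63365 counts per library, counting error was small for this gene.

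ACTG1 (ENSG00000184009, chr17:81509971-81523847, minus strand) had 2522, 2574 and 2667 CPM in Vehicle and 2554, 2621 and 2807 CPM with TGFB1. The lowest and highest libraries of the groups interleaved. Its log2 fold change was 0.04 ± 0.04 (SE; adjusted p = 0.808), and the interval of the fold, 0.97 to 1.09, was among the narrowest of the set. In a sliding window of 50 bases, 4.8% of the windows of ACTB transcripts and 2.3% of those of ACTG1 were shared with transcripts of other genes, among them each other, so a small part of their reads may have been assigned to neither or to the wrong gene.

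The balance between both actins was measured as the share of ACTG1 in the summed ACTB and ACTG1 counts. It was 62.0%, 61.7% and 60.4% in Vehicle and 57.0%, 60.7% and 60.3% with TGFB1. The groups overlapped, and TGFB1 replicate 1 was the lowest. The means were 61.4% ± 0.847 and 59.3% ± 2.06 (SD, n = 3). The difference of -2.04 percentage points had a p of 0.2 in a two-sided exact permutation test, where the smallest p that 3 against 3 libraries allow is 0.1. It ran from -2.73 to -0.86 percentage points when each library was left out, the latter without TGFB1 replicate 1.

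The tropomyosins TPM1 and TPM2 stabilise actin filaments and set which myosins and severing proteins can reach them. TPM1 (ENSG00000140416, chr15:63042632-63071915, plus strand) had 483, 489 and 485 CPM in Vehicle and 459, 506 and 506 CPM with TGFB1. The Vehicle libraries lay within the range of the TGFB1 libraries, whose SD of 27.1 CPM was wider than the 3.15 CPM of Vehicle. The log2 fold change was 0.01 ± 0.05 (SE; adjusted p = 0.957), with an interval of the fold from 0.94 to 1.08. TPM2 (ENSG00000198467, chr9:35681992-35690121, minus strand) had 150.3, 159 and 154 CPM in Vehicle and 159, 154 and 163 CPM with TGFB1. Its groups overlapped too. The log2 fold change of TPM2 was 0.04 ± 0.05 (SE), the adjusted p was 0.862 and the interval of the fold ran from 0.95 to 1.1.

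TPM1 made up 21.2%, 21.5% and 21.5% of the summed counts of the 4 tropomyosin genes TPM1 to TPM4 in Vehicle, and 20.6%, 22.0% and 22.2% with TGFB1. The difference of means was 0.23 percentage points (exact permutation p = 0.8, two-sided), and it was -0.09 without TGFB1 replicate 3. The most abundant tropomyosin by counts was TPM3, with means of 1253 ± 17.2 and 1262 ± 24.4 CPM (log2 fold change 0.01 ± 0.04). TPM1 shares 21.4% of its exon bases with genes of the other strand, among them TPM1-AS, and whether the counting used the strand is not given in the sources used here.

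MYH9 (ENSG00000100345, chr22:36281277-36388067, minus strand) encodes the heavy chain of non-muscle myosin IIA, the motor that contracts stress fibres. It had 264, 289 and 303 CPM in Vehicle and 289.7, 264 and 324 CPM with TGFB1. The replicates of each group differed by more than the group means, which were 285 ± 19.9 and 293 ± 30.3 CPM. The log2 fold change was 0.04 ± 0.06 (SE; adjusted p = 0.896), and the interval of the fold was 0.94 to 1.12. For ACTG1, TPM1, TPM2 and MYH9 the upper ends of these intervals lie between 1.08 and 1.12, so any rise above that lies outside the intervals of these 4 genes.

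The smooth muscle genes were at the edge of detection. ACTA2 (ENSG00000107796, chr10:88935074-88991339, minus strand), the actin of smooth muscle and myofibroblasts, had 41, 41 and 68 counts in Vehicle and 42, 45 and 28 with TGFB1. As CPM these were 1.68, 1.35 and 1.95 against 1.28, 1.3 and 0.86. All 3 TGFB1 libraries were below all 3 Vehicle libraries, an ordering that 7.49% of all genes tested showed in this direction. The log2 fold change was -0.53 ± 0.32 (SE; adjusted p = 0.544), and the interval of the fold, 0.44 to 1.08, includes no change. ACTA2 shares 30.1% of its exon bases with FAS and ACTA2-AS1 on the other strand. Of its 50-base windows, 26.0% were shared, on either strand, with transcripts of other genes, foremost ACTA2-AS1 and FAS. These measures overlap in part, and the counts of ACTA2 are uncertain.

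TAGLN (ENSG00000149591, chr11:117199321-117204782, plus strand) encodes transgelin, an actin-binding protein of smooth muscle. It had 17, 13 and 32 counts in Vehicle and 16, 38 and 41 with TGFB1, or 0.695, 0.427 and 0.919 against 0.487, 1.1 and 1.26 CPM. TGFB1 replicate 1 lay below 2 of the Vehicle libraries, and the other TGFB1 libraries lay above all 3. Its log2 fold change of 0.47 ± 0.45 (SE; adjusted p = 0.762) had an interval of the fold from 0.74 to 2.6. It ran from 0.22, without Vehicle replicate 2 or TGFB1 replicate 3, to 0.78, without TGFB1 replicate 1. PCSK7, on the other strand, overlaps 11.4% of the exon bases of TAGLN.

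MYL9 (ENSG00000101335, chr20:36541484-36551447, plus strand) encodes a regulatory light chain of myosin II. It had 20, 5 and 32 counts in Vehicle and 24, 20 and 19 with TGFB1, that is 0.818, 0.164 and 0.919 against 0.731, 0.578 and 0.584 CPM. The Vehicle libraries surrounded the TGFB1 libraries. The log2 fold change was -0.01 ± 0.51 (SE; adjusted p = 0.998), and its sign turned under several settings. The interval of the fold, 0.48 to 2.05, is wide, and it does not exclude changes within that range in either direction.

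CNN1 (ENSG00000130176, chr19:11538717-11550323, plus strand), which encodes the smooth muscle calponin, had 0, 3 and 1 counts in Vehicle and 6, 7 and 2 with TGFB1, too few to be tested. The 0 of Vehicle replicate 1 allows up to 0.123 CPM, from 3 counts in that library and for counting error only. Vehicle replicate 2, with 3 counts, lay above TGFB1 replicate 3, with 2, so the groups overlapped.

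ACTA2, TAGLN and CNN1 are also used as markers of smooth muscle cells and activated fibroblasts, so other markers of those cells are given beside them. All 8 smooth muscle markers had a count in at least 1 library. Their summed level was only 0.95 to 1.31 CPM in Vehicle and 1.17 to 1.79 CPM with TGFB1. MYH11 had 13 to 22 counts per library, and every other marker had at most 10. LMOD1 had counts in every library (4 to 10), whereas DES had at most 1 in any. The 7 fibroblast markers summed to 16.76 to 19.92 CPM in Vehicle and 14.37 to 16.68 CPM with TGFB1. LUM (6.82 to 10.4 CPM) and PDGFRB (4.67 to 5.97 CPM) were the highest of these, while COL1A1 and COL1A2 had at most 9 counts in any library. The part of smooth muscle cells or fibroblasts in the low counts of ACTA2, TAGLN, MYL9 and CNN1 was not tested. Of the melanoma markers, S100B, MITF and AXL were present in every library, at 52.2 CPM or more, whereas SOX10 was listed at 0 in all 6 libraries and TYR had at most 5 counts. Of the 8 melanoma markers tested, MITF was the 1 past the test, with a log2 fold change of -0.23 (adjusted p = 0.0355). Of all genes tested, 0.887% were called lower. The markers were named after their values were seen, so this call is no result about the cell type.

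**Figure D2:**
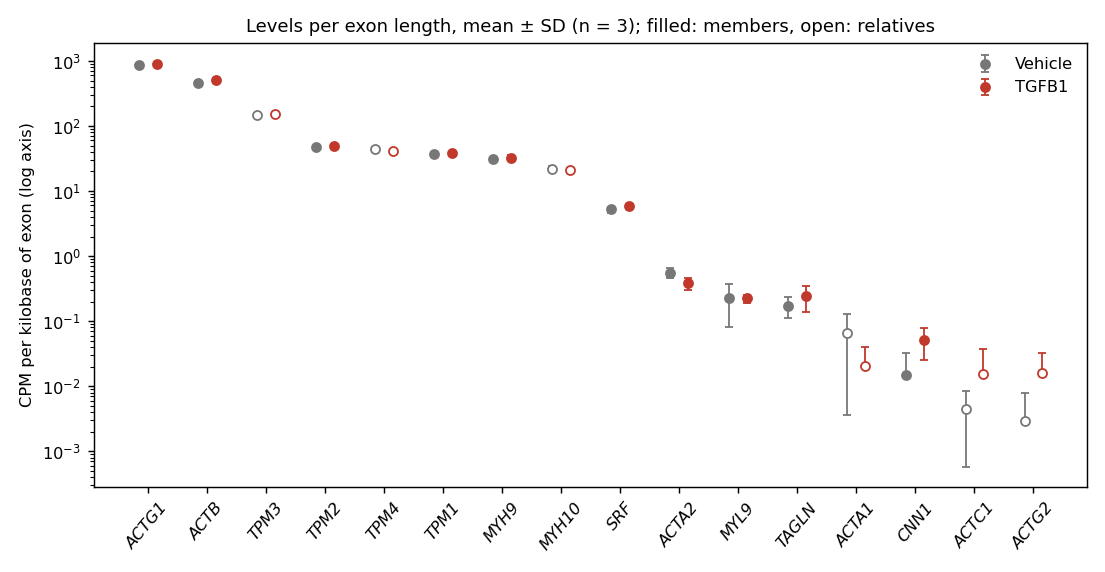
Mean level of the 10 genes (filled) and of 6 relatives (open), in CPM per kilobase of annotated exon on a log axis, with the SD of 3 libraries; a lower bar is left out where the SD is as large as the mean. The cytoplasmic actins are the highest of the genes plotted, SRF lies between the filament genes and the smooth muscle forms, and every smooth muscle form plotted lies below SRF.

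Per kilobase of exon, the genes fell into 4 tiers, taken here as the range over all 6 libraries in CPM per kilobase. ACTG1 was highest, at 843 to 938, and ACTB came next, at 439 to 548, with no overlap between them. The filament and motor genes followed, with TPM2 at 46.3 to 50.3, TPM1 at 35.7 to 39.3 and MYH9 at 29.3 to 36.0. The ranges of TPM1 and MYH9 overlapped, so their order is not separated by these libraries. SRF stood alone at 4.6 to 6.31. The smooth muscle genes were the lowest, with ACTA2 at 0.289 to 0.656, MYL9 at 0.0582 to 0.326 and TAGLN at 0.109 to 0.321, ranges that overlap one another. CNN1 was at 0 to 0.07, below ACTA2 and TAGLN without overlap, while its range met that of MYL9. The mean of ACTG1 was 865 in Vehicle, where that of ACTA2 was 0.558.

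The order rests in part on which exons are counted as the gene's length. With the shorter exon sets of GENCODE's basic transcripts, an alternative chosen after seeing the data, the Vehicle means were 1086 for ACTG1, 819 for ACTB, 94.2 for TPM2, 58.2 for TPM1 and 37.0 for MYH9. MYL9 (0.225) then came below TAGLN (0.283), and no other neighbours changed places. TPM1 (55.0 to 60.7) and MYH9 (34.2 to 42.1) no longer overlapped.

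The closest relatives of the 10 genes, from a list of 17 further actins, tropomyosins, myosins, transgelins and calponins, gave the same count. Of 14 tested, 0 rose and 0 fell with edgeR, where 3.31% of all genes tested were called. At an unadjusted p under 0.05 there were 3, where 12.3% of all genes tested had such a p. These were TAGLN2, which was higher, and TAGLN3 and MYH14, which were lower. TAGLN3 (-0.42 ± 0.17, adjusted p = 0.267) and MYH14 (-0.23 ± 0.11, adjusted p = 0.391) were named after their values were seen. The median log2 fold change of the 14 was 0.012. TAGLN2, the non-muscle transgelin, had 391 ± 19.3 CPM in Vehicle and 432 ± 4.02 CPM with TGFB1 (log2 fold change 0.14 ± 0.05, adjusted p = 0.109), with all TGFB1 libraries above all Vehicle libraries. TPM4 went the other way without overlap, at 379 ± 9.34 and 358 ± 4.03 CPM (-0.08 ± 0.05, adjusted p = 0.521). Of all genes tested, 8.96% had groups apart in the direction of TAGLN2 and 7.49% in that of TPM4. Without Vehicle replicate 3, TAGLN2 was called (adjusted p = 0.025). MYH10, the heavy chain of non-muscle myosin IIB, had 197 ± 19.0 CPM in Vehicle and 186 ± 5.76 CPM with TGFB1 (adjusted p = 0.632). The muscle actins ACTA1, ACTC1 and ACTG2 had at most 6 counts in any library and were not tested.

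**Figure D3:**
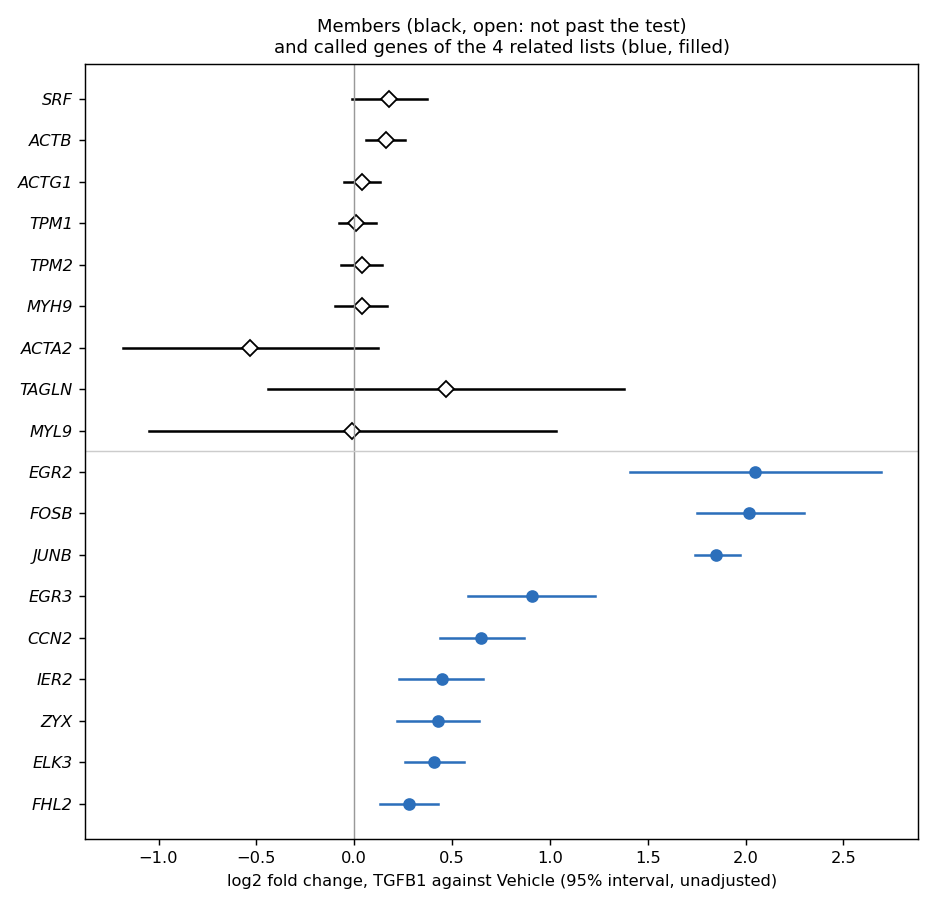
Log2 fold change of TGFB1 against Vehicle with its unadjusted 95% interval, for the 9 tested genes of the set (black, open) and for the 9 genes of the 4 related lists that passed the test (blue, filled). The intervals of ACTA2, TAGLN and MYL9 are the widest of the plot, while those of the abundant actins and tropomyosins are among the narrowest and lie near 0.

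The protein partners of SRF were taken as a list of 10 cofactors, chosen with earlier results of these data known. Of these, 8 were tested, 2 rose and 0 fell, where 2.43% of all genes tested rose and 0.887% fell. The median log2 fold change of the 8 was 0.071. ELK3, a ternary complex factor, had 53.9, 60.8 and 59.2 CPM in Vehicle and 88.1, 74.6 and 69.1 CPM with TGFB1. The groups were separate, and the log2 fold change was 0.41 ± 0.07 (SE; adjusted p = 0.000464). FHL2, a LIM protein that binds SRF and is itself known as an SRF target, had 39.1, 42.4 and 42.3 CPM against 45.9, 51.0 and 53.6 CPM. Its log2 fold change of 0.28 ± 0.07 passed the test (adjusted p = 0.0181). The adjusted p was 0.0865 and 0.0537 when Vehicle replicate 1 or 2 was left out, and 0.0761 and 0.206 when TGFB1 replicate 2 or 3 was, so the call was lost each time. Nor did it hold at a threshold of 0.01, which leaves 1 cofactor, ELK3.

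The actin-sensing coactivators were not called. MRTFA had a log2 fold change of 0.19 ± 0.16 (adjusted p = 0.726; 0.03 without Vehicle replicate 2 and 0.43 without Vehicle replicate 3) and MRTFB one of 0.06 ± 0.11 (adjusted p = 0.909). MRTFA was low, with means of 6.42 ± 1.74 and 7.35 ± 0.33 CPM, and its Vehicle libraries spread on both sides of the TGFB1 libraries. The other ternary complex factors gave 0.09 ± 0.06 for ELK1 (adjusted p = 0.653) and -0.04 ± 0.07 for ELK4 (adjusted p = 0.895). These are RNA levels, and the movement of these proteins to the nucleus was not measured. MYOCD, the myocardin of heart and smooth muscle, had at most 10 counts in any library, and was chosen after its values were seen.

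Genes of stress fibres and focal adhesions, a list of 29, gave 25 tested, 1 higher and 0 lower, a share near the 2.43% higher and 0.887% lower of all genes tested, so the count is no result about the list. Its median log2 fold change was 0.031. The gene that rose was ZYX, which encodes zyxin, an adhesion protein that is recruited to strained actin bundles. It had 13.1, 15.5 and 17.4 CPM in Vehicle and 21.9, 19.1 and 21.3 CPM with TGFB1, with no overlap, and a log2 fold change of 0.43 ± 0.10 (adjusted p = 0.0114). The call was lost, and the count with it, when Vehicle replicate 1 or 2 was left out (adjusted p = 0.0936 and 0.0636) and when TGFB1 replicate 1 or 3 was (0.111 and 0.0638). Without Vehicle replicate 3, in contrast, 4 genes of the list passed. Vinculin, VCL, a link between integrins and actin, had 138 ± 2.79 CPM in Vehicle and 138 ± 0.967 CPM with TGFB1, and was chosen after its values were seen.

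**Figure D4:**
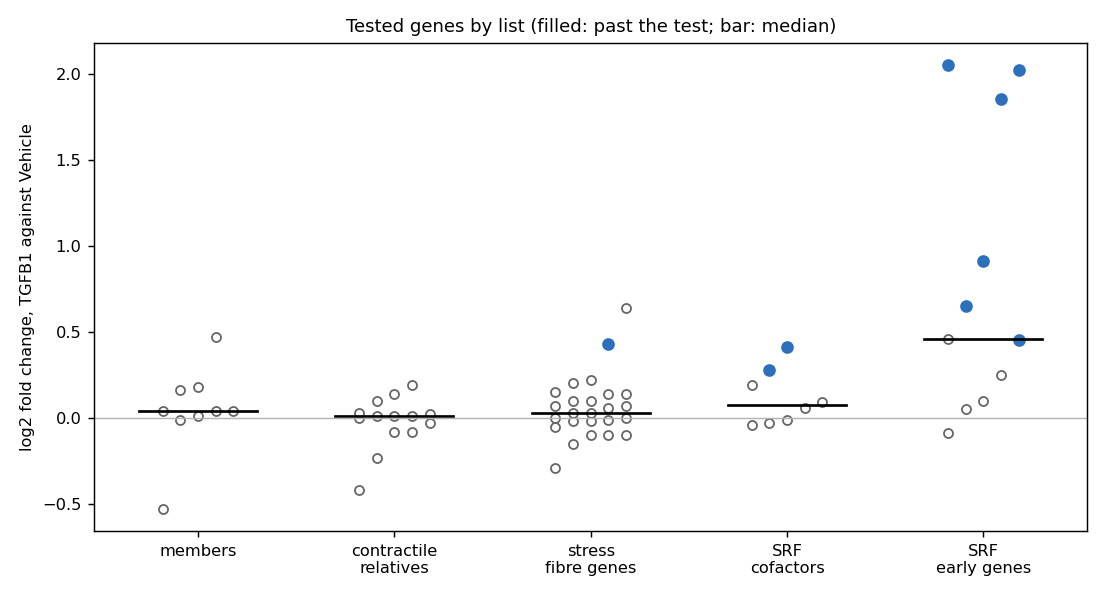
Log2 fold change of each tested gene in the set of 10 (labelled members) and in 4 related lists, with genes past the test filled and the median of each list as a bar. The early genes spread upwards to 2.05, whereas the set and its contractile relatives hold no filled point. The set and the lists were chosen with earlier results of these data known.

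The early genes that SRF is known to help switch on within the first hours of a stimulus held the most calls of the 4 lists. Of 12 listed and 11 tested, 6 rose and 0 fell, beside 2.43% and 0.887% of all genes tested. The list was chosen with earlier results of these data known, so this count is no independent result about it. The median log2 fold change was 0.463. JUNB had 36.7, 34.7 and 35.8 CPM in Vehicle and 129, 126 and 132 CPM with TGFB1 (1.85 ± 0.06, adjusted p = 8.89e-22); HOOK2, on the other strand, overlaps 14.2% of its exon bases. FOSB had 3.68, 4.73 and 5.14 CPM against 21.4, 17.2 and 17.0 CPM (2.02 ± 0.14, adjusted p = 2.79e-13). Both encode subunits of the AP-1 transcription factor. CCN2, a secreted matricellular protein known as connective tissue growth factor, went from 11.9 ± 0.847 to 18.8 ± 1.47 CPM (0.65 ± 0.11, adjusted p = 5.69e-05). JUNB and CCN2 are also known as targets of SMAD proteins, so a place on this list does not say that SRF acted on them.

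Named after their values were seen, EGR3, of the same family as EGR1 and EGR2, went from 4.35 ± 0.814 to 8.09 ± 0.401 CPM (0.91 ± 0.16, adjusted p = 0.000232), and IER2 from 17.6 ± 2.94 to 24.2 ± 2.46 CPM (0.45 ± 0.11, adjusted p = 0.0094). The IER2 call was lost when Vehicle replicate 2 was left out (adjusted p = 0.137) and when TGFB1 replicate 1 or 3 was (0.122 and 0.0594), and 30.8% of its exon bases lie under a gene of the other strand.

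FOS did not pass the test, with 6.1, 7.16 and 5.86 CPM in Vehicle and 6.76, 6.9 and 6.08 CPM with TGFB1 (0.05 ± 0.15, adjusted p = 0.953). It too was chosen after its values were seen.

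Genes with a CArG box next to their start included called and uncalled ones. The early gene EGR2, a zinc finger factor, had 1.31, 0.559 and 0.603 CPM in Vehicle and 4.26, 3.29 and 2.4 CPM with TGFB1 (2.05 ± 0.31, adjusted p = 3.06e-05). Its relative EGR1, named after its values were seen, had 5.89, 5.09 and 5.06 CPM against 7.34, 5.81 and 5.87 CPM (0.25 ± 0.16, adjusted p = 0.586), and TGFB1 replicates 2 and 3 lay below Vehicle replicate 1. EGR2 and FHL2 were called and EGR1 was not. The log2 fold changes of EGR1 (0.25 ± 0.16) and FHL2 (0.28 ± 0.07) were nonetheless close. The stretches upstream of EGR2 (chr10:62816367-62816496, minus strand), EGR1 (chr5:138465349-138465478, plus strand) and FHL2 (chr2:105438514-105438643, minus strand) are shown because the 3 genes carry the box:
EGR2: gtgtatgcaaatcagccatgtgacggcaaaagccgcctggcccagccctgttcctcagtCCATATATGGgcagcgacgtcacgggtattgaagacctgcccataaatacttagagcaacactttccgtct
EGR1: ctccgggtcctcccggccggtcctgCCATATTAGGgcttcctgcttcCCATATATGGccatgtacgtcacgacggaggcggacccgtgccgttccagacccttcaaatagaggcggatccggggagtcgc
FHL2: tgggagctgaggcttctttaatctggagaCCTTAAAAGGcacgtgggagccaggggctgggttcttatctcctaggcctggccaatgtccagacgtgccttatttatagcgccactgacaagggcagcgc
The same 10 letters, CCATATATGG, stand upstream of ACTG1, EGR1 and EGR2, of which EGR2 was called. Among the set and the 4 lists together, 2 of the 16 tested genes with a CArG box in a window were called (12.5%). These were EGR2 and FHL2. Of the tested genes with a window but no box, 6 of 44 were called (13.6%), and all calls were higher. Genes without a window are in neither share. Among them were EGR3, which was called higher, and ACTB, TAGLN and MYL9, which were not called. With counts this small, a window for EGR3 could change which share is larger. Over all tested genes with a window, the shares were 6.38% of 188 with a box and 3.57% of 11499 without. No test was made of these shares.

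Replicate libraries of the same group differed in ways that followed base composition. The Spearman correlation across 16354 genes between GC content and a library's deviation from its group mean was -0.003, -0.205 and 0.188 for Vehicle replicates 1 to 3, and 0.087, -0.195 and 0.129 for TGFB1 replicates 1 to 3, as a description, since genes are not independent. Replicate 2 was the lowest and replicate 3 the highest in both groups. The genes of the set followed this in part, by the difference between replicates 3 and 2 of the same group. MYH9, with 58.6% GC, was 0.07 higher in replicate 3 on the log2 scale in Vehicle and 0.30 higher with TGFB1, and ACTB, with 55.1% GC, 0.13 and 0.12 higher. SRF, with 60.9% GC, was 0.26 higher in Vehicle and differed by -0.01 with TGFB1. TPM1, with 45.9% GC, differed by -0.01 in Vehicle, and TPM2, with 55.3% GC, by -0.05 in Vehicle and 0.09 with TGFB1. The genes with few counts differed more and in no 1 direction: ACTA2 by 0.52 and -0.56, TAGLN by 1.0 and 0.19, and MYL9 by 2.11 and 0.01. With the trend on GC removed in each library, an alternative chosen after seeing the data, 0 of the genes tested in the set were called, and the log2 fold changes of MYH9 and ACTG1 became -0.03 and -0.02. That of SRF went from 0.18 to 0.1 (adjusted p = 0.724) and that of ACTB from 0.16 to 0.12 (adjusted p = 0.229).

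**Figure D5:**
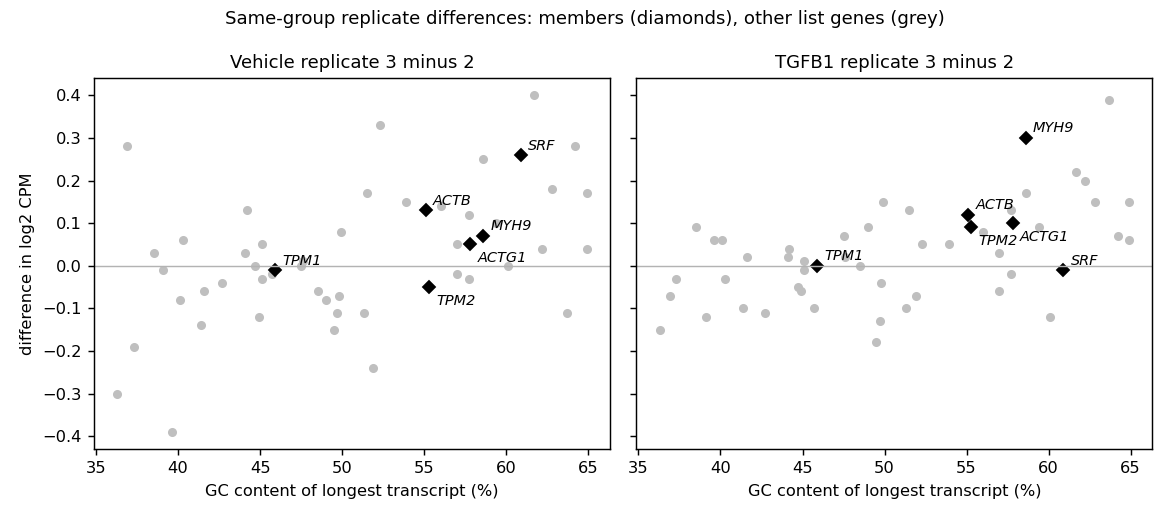
Difference in log2 CPM between replicates 3 and 2 of the same group against the GC content of the longest transcript, in percent. Genes of the set are black diamonds, and those of the 4 lists and the cell type markers are grey. Only genes with a mean of at least 10 CPM are drawn, which leaves out ACTA2, TAGLN, MYL9 and CNN1. Among the genes of the set drawn, the largest differences were 0.26 for SRF in Vehicle and 0.30 for MYH9 with TGFB1, and TPM1, the lowest in GC, lies at 0 in both panels to within 0.01.

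The genes whose level followed SRF most closely over the 6 libraries were found among the 9101 genes with a mean of at least 10 CPM. MFSD12, a lysosomal membrane protein, had a Pearson correlation of 0.996 with SRF, TPCN1, an ion channel, 0.989, and MLF2 0.988. MFSD12 had 122, 109 and 122 CPM in Vehicle and 134, 125 and 124 CPM with TGFB1, the same drop in Vehicle replicate 2 and peak in TGFB1 replicate 1 as SRF. This match restates how the 3 genes were picked, as the highest correlations among 9101 genes over only 6 libraries. None of the 3 was called (adjusted p = 0.378, 0.391 and 0.42). All have 57.4% GC or more, and the 6 points share the libraries' base composition and depth. Among the 6 genes of the set above that level, SRF correlated with ACTB at 0.674, with ACTG1 at 0.0712, with MYH9 at -0.00938, with TPM2 at -0.0666 and with TPM1 at -0.338. The 15 pairs ran from the last value to 0.799, between TPM2 and MYH9.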

How the data were processed

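RNA-seq read counts of 6 libraries were analysed, 3 per group, grouped by the treatment label. The deposited values are raw counts per Ensembl gene, made by the authors with cutadapt, TopHat2 2.1 and HTSeq on GRCh38, per the submitters' processing notes. How overlapping reads were counted, whether by strand, and from which annotation release is not given in the sources used here. Per the labels, the RNA was polyA, while the labels' protocols describe removal of ribosomal RNA. The 10 genes and all lists were chosen with earlier results of these data known.

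Symbols were matched by gene ID (56948 of 58051; 97 of 97 listed). Genes were kept with filterByExpr (minimum count 10, minimum total 15), scaled by TMM and tested with edgeR 4.0.16 in R 4.3.3 (quasi-likelihood F-test, robust, group as the sole term), with Benjamini-Hochberg adjustment over 16690 genes. The SE is the absolute log2 fold change divided by the square root of F. The 95% intervals are from the same fit, unadjusted, and floors (3 counts) cover counting error only. Exon lengths, overlaps and gene coordinates are from GENCODE 29 on GRCh38, and promoter windows from RefSeq, GRCh38.p14. The fit was also run on simulated counts, drawn without a GC trend, and the outcome is not given here. Alternatives were other scalings, filters, thresholds, DESeq2 1.42.0, limma-voom (limma 3.58.1), a replicate block and leaving out each library.

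Named besides the 10 were, per list, up to 4 called genes by smallest p (if none was called, the 2 of highest level), the MRTF and ELK factors, ACTA1, ACTC1, ACTG2, TPM3, TPM4 and MYH10, and the 3 genes most correlated with SRF. Cell type markers were named after their values were seen, and others are said to be chosen later. A further gene list is not reported here.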

Additional observations from a re-analysis of the deposited data

How the results depend on the processing

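With 3 technical libraries per group, low counts limit ACTA2, TAGLN, MYL9 and CNN1. In the set of 10, the genes called higher numbered 1, ACTB, with no low-count filter (log2 fold change 0.17) and with the replicate block (0.16), and 0 to 1 when each library was left out. None was called lower in any setting run. The MYL9 value was 0.01 with no filter, 0.3 with limma-voom and 0.16 with the replicate block. MYH9 (-0.03) and ACTG1 (-0.02) turned with the GC trend removed. Leaving out each library gave -0.01 to 0.06 for TPM1, -0.46 to 0.4 for MYL9, -0.04 to 0.11 for MYH9, 0.12 to 0.22 for ACTB, -0.11 to 0.02 for ELK4 (0.01 without Vehicle replicate 3) and -0.09 to 0.72 percentage points for the TPM1 share; the cause was not tested. At a threshold of 0.01, 95 of all genes were lower, 1 cofactor was higher and 0 stress fibre genes were higher; the replicate block gave 2 of the last. Leaving out each library gave 264 to 683 genes higher over all genes and 97 to 240 lower (683 and 240 without Vehicle replicate 3, 264 without TGFB1 replicate 1, 97 without TGFB1 replicate 3). It gave 1 to 2 cofactors, 0 to 1 contractile relatives and 0 to 4 stress fibre genes higher. Same-numbered libraries correlated at -0.0296, 0.0418 and 0.00761 in their deviations from the group means, under the 0.1 set for pairing, so by that rule they were not treated as pairs, and not every library correlated best with its own number; the GC trends of replicates 2 and 3 nevertheless had the same sign in both groups. With the number as a block, 448 genes were higher and 153 lower.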
